A study of Mus musculus with 26 samples.

Results

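The 10 genes described here encode nuclear subunits of cytochrome c oxidase, namely Cox4i1, Cox4i2, Cox5a, Cox5b, Cox6a1, Cox6a2, Cox7a1, Cox7a2, Cox8a and Cox8b. They were taken by symbol, whatever their values, and each had 1 row in both FPKM tables, which is 10 of 53465 genes in the muscle regeneration table and 10 of 55487 genes in the C2C12 table. The first table held tibialis anterior muscle of six-week-old male C57BL/6J mice at days 0, 1, 3, 5 and 10 around an injection of cardiotoxin (CTX), a snake venom toxin that destroys muscle fibres, with 2 libraries per day. The methods name a saline injection as the control, and whether day 0 (D0) is that control or untouched muscle is not given in the sources used here. The second table held C2C12 myoblasts, a mouse muscle precursor line, in growth medium (GM) or after 3 days of differentiation (DM3), with 2 libraries in each of 4 groups. Ctrl cells were the controls, and Cas9M3 cells were a puromycin-selected population carrying a lentiviral dCas9-KRAB repressor with guides to the promoter of Mettl3, the catalytic subunit of the m6A RNA methyltransferase. The methods call these cells a knockdown and the series text a knockout, and dCas9-KRAB does not cut DNA. The labels do not say whether the 2 libraries of a group came from separate animals or cultures, so the spread between them may be technical.

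Cytochrome c oxidase, complex IV of the respiratory chain, passes electrons from cytochrome c to oxygen and pumps protons across the inner mitochondrial membrane. Its catalytic core is encoded by mitochondrial DNA, and nuclear subunits surround the core and tune its assembly and activity. Several nuclear subunits exist as alternative isoforms that fill the same place in the enzyme. Cox6a2, Cox7a1 and Cox8b are the heart and skeletal muscle forms of subunits VIa, VIIa and VIII, and Cox6a1, Cox7a2 and Cox8a are their ubiquitous partners. Cox4i1 is the ubiquitous form of subunit IV and Cox4i2 its tissue-restricted form, known from lung and from cells at low oxygen. Cox5a and Cox5b encode different subunits (Va and Vb), so they are not alternatives to each other.

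The libraries carried an estimated 14174000 to 18823000 reads on genes in the regeneration table and 14230000 to 29567000 in the C2C12 table, read from the steps in the low FPKM values. Xist, a transcript of female cells, was at 5.77 to 10.0 FPKM in both D0 libraries, both D10 libraries and D3 replicate 2, and at 0.0170 to 0.152 FPKM in the other 5 libraries, against the single sex given in the methods. D0 against D1 and D0 against D5 therefore also differ in Xist throughout, and results are given below with a term for it where it ended a call. Only D3 held libraries of both kinds, so the term is set by the difference between the D3 replicates alone. With it, a comparison of D3 with another day rests on a single D3 library, so it is no independent check on sex. Mettl3 was at 4.68 to 5.65 FPKM in the 4 Ctrl libraries and at 0.0805 to 0.331 FPKM in the 4 Cas9M3 libraries, and its exons overlap those of Tox4. Ctrl_GM replicate 2 stood apart in the C2C12 table, since its genes with under 1000 exon bases lay a median of 0.87 above the table's mean on the log2 scale, compared with -0.32 to 0.14 in the other 7 libraries. Of the 10 members, 7 are that short (all but Cox4i1, Cox5a and Cox5b), so results that rest on that library are given below with and without it. For the same short genes, replicate 1 of every C2C12 group lay at -0.32 to -0.16 and replicate 2 at 0.03 to 0.87. Replicate 1 libraries also carried more estimated reads, 25169000 to 29567000 against 14230000 to 18899000. Replicate number thus goes with depth and with the values of short genes in the cells, and the main fit has no term for it. FPKM values are per length of exon, and the 2 tables were scaled separately, so no level is compared across them. Levels of different genes are set side by side within a table. Such comparisons, and the share of an isoform in its pair, depend on the exon length used for each gene. That length covers all annotated exons, 360 bases for Cox8b and 619 for Cox8a, and was not checked against the transcripts expressed.

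The 3 muscle isoform genes lie on chromosome 7 in GRCm38. Cox6a2 spans chr7:128205435-128206387 on the minus strand, Cox7a1 spans chr7:30184144-30186078 on the plus strand and Cox8b spans chr7:140898945-140900446 on the minus strand. Their partners lie elsewhere, Cox6a1 at chr5:115345642-115348981, Cox7a2 at chr9:79755361-79759878 and Cox8a at chr19:7215153-7217616, all on the minus strand. The strand setting of the read counting is not given in the sources used here, and 3 members share exon bases with a gene on the opposite strand, namely Cox4i1 with Emc8 (154 bases), Cox5a with Gm26631 (269 bases) and Cox6a2 with Itgad (70 bases). Cox5b is uncertain for another reason, since Gm11273, annotated as protein-coding, matches it at 99.2% over 390 bases and was listed at up to 26.3 FPKM in the regeneration table and 95.1 FPKM in the C2C12 table. Cox5a and Cox6a1 have more distant copies, Gm11633 at 93.0% and AC148174.2 at 92.9% identity.

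The 250 bases before the start of 7 of the 10 members were found in the RefSeq promoter table (GRCm38.p6), and those of Cox7a1, Cox7a2, Cox8a, Cox8b and Cox6a1 are printed so that the muscle and ubiquitous forms can be compared. Capitals mark matches, on either strand, to an E-box (CANNTG, of which CAGCTG is one form), a GC box (GGGCGG), an ETS motif (CCGGAAG) or an NRF1 motif (GCGC, AT and GCGC in a row). A MEF2 motif and a TATA box (TATAAA) were also searched and matched none of the 7 windows. The windows are chr7:30183921-30184170 (plus strand) for Cox7a1, chr7:140900447-140900696 (minus) for Cox8b, chr9:79759854-79760103 (minus) for Cox7a2, chr19:7217617-7217866 (minus) for Cox8a and chr5:115348959-115349208 (minus) for Cox6a1.
Cox7a1: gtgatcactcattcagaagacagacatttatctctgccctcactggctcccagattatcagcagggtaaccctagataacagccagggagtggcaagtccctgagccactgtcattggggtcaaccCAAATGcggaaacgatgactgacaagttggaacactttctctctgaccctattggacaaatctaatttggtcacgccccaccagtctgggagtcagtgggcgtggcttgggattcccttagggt
Cox7a2: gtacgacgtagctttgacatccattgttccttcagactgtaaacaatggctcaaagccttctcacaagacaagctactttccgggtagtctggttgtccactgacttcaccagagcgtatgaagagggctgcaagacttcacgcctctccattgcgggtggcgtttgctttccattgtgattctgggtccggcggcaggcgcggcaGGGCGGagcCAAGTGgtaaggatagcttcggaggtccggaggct
Cox8b: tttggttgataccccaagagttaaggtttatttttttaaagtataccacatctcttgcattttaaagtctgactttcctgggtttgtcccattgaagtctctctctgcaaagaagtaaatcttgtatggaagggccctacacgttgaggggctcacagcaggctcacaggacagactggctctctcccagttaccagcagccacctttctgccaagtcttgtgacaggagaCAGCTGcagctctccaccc
Cox8a: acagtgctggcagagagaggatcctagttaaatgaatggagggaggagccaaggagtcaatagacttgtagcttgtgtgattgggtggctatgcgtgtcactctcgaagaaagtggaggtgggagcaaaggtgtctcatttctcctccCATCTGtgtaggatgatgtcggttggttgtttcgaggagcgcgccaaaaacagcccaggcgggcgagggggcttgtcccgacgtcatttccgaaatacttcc
Cox6a1: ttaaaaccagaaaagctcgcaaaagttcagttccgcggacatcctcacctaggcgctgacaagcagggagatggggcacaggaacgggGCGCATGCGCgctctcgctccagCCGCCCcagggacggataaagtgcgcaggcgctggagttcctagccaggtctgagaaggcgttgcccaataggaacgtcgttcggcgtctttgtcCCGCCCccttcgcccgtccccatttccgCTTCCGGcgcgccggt
The Cox8b window held 1 CpG and the Cox7a1 window 4, compared with 14 for Cox7a2, 11 for Cox8a and 26 for Cox6a1, and the median over 32851 mouse windows of this length was 6. Fewer CpG than in Cox8b were found in 7.87% of those windows and fewer than in Cox6a1 in 90.4%. Cox6a1 alone of the 7 held the NRF1 motif, found in 0.782% of all windows, together with 1 ETS motif (6.91% of windows) and 2 GC boxes (32.7%). Cox8b held the CAGCTG form of the E-box, which 13.0% of all windows carry, while the general E-box seen in Cox7a1, Cox7a2 and Cox8a is in 66.2%. A match to these letters is a description of the window and not a bound site.

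The muscle isoforms fell to their lowest level at D3 and were back near the D0 level at D10, whereas the ubiquitous partners Cox6a1 and Cox8a peaked at D3. Against D0, all 10 members were called at D3 by limma (adjusted p at most 0.05), 8 lower and 2 higher, where 48.8% of all genes tested were called (24.3% lower and 24.5% higher). In whole muscle, fewer cells of a type and less RNA per cell cannot be told apart, and D1, D3, D5 and D10 were all compared with the same 2 D0 libraries.

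Cox6a2, the muscle form of subunit VIa, was at 1089 and 755 FPKM at D0 and at 544 and 589 FPKM at D1. It reached 189.5 and 129 FPKM at D3, then 337 and 342 at D5 and 748 and 631 at D10. The D3 libraries lay below those of every other day, and its log2 fold change from D0 to D3 was -2.54 (SE 0.24, adjusted p = 0.000385).

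Cox7a1, the muscle form of subunit VIIa, was at 982 and 729.6 FPKM at D0 and at 626 and 506 FPKM at D1. At D3 it was at 127 and 77.8 FPKM, at D5 at 327 and 351 and at D10 at 783 and 626. It had the lowest log2 fold change of the 10 members at D3, -3.09 (SE 0.27, 95% interval -3.72 to -2.46, adjusted p = 0.000327).

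Cox8b, the muscle form of subunit VIII, is also a known gene of brown fat. Its level was 1050.4 and 684 FPKM at D0, 582 and 579 at D1, and 199 and 114 at D3. It was at 306 and 270.3 FPKM at D5 and at 809 and 699 FPKM at D10. The change from D0 to D3 was -2.49 (SE 0.30, adjusted p = 0.000651). The 4 fat cell markers summed to 1.24 to 4.31 FPKM over the 10 libraries, with Ucp1, the defining gene of brown fat, under 0.1 FPKM on every day.

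**Figure D1:**
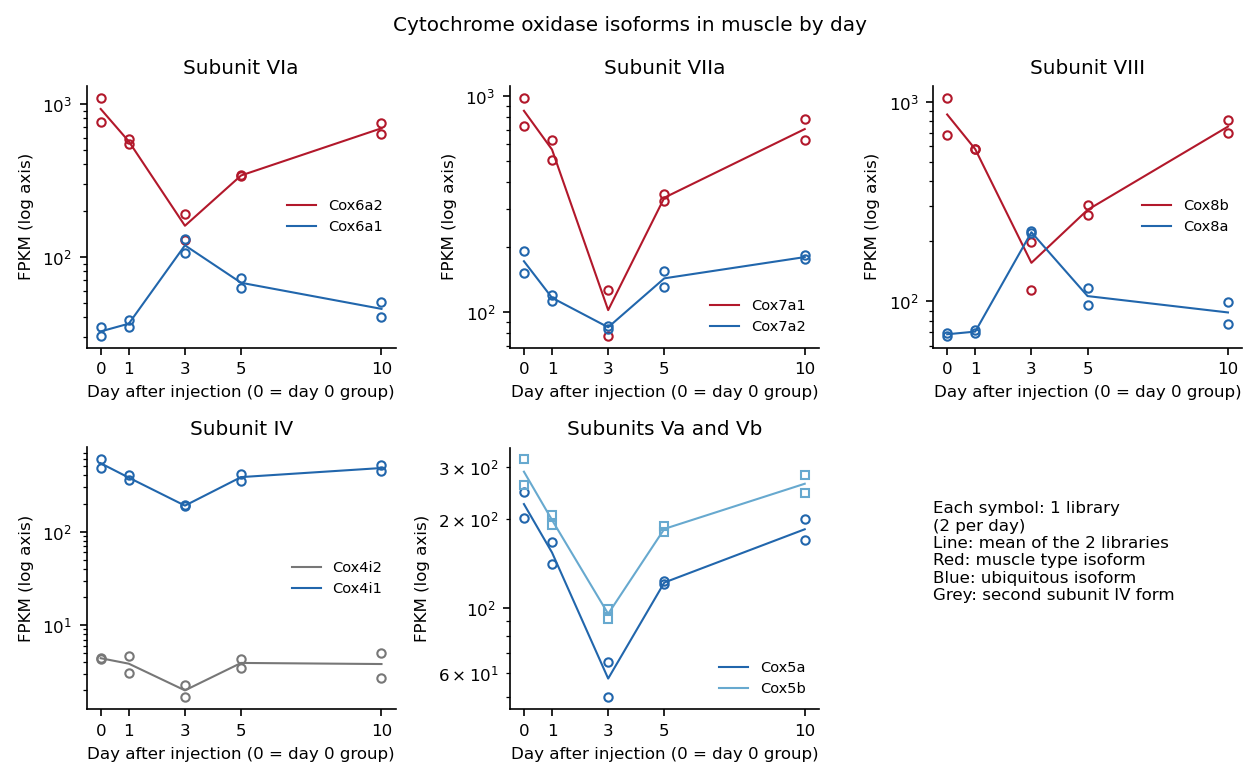
FPKM (log axis) of the 3 muscle isoforms and their ubiquitous partners at days 0, 1, 3, 5 and 10, with a point per library and a line through the mean of the 2 libraries of a day. The muscle isoforms dip to between 77.8 and 199 FPKM at D3, Cox6a1 and Cox8a peak there at 106 to 225 FPKM, and Cox7a2 dips with its partner to 83.5 and 86.7 FPKM.

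Cox6a1, the ubiquitous partner of Cox6a2, was at 30.4 and 34.5 FPKM at D0 and rose to 106 and 131 FPKM at D3. It was at 38.3 and 34.6 FPKM at D1, 62.1 and 72.8 at D5 and 40.4 and 50.7 at D10. Its D3 libraries were above all others, and the log2 fold change from D0 was 1.86 (adjusted p = 0.000367). Cox8a, the partner of Cox8b, had the same order of days, with 67.3 and 69.5 FPKM at D0, 72.0 and 69.1 at D1, 219.8 and 225 at D3, 96.3 and 116 at D5 and 77.3 and 98.8 at D10. Its change at D3 was 1.70 (adjusted p = 0.000355).

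Cox7a2 did not follow Cox6a1 and Cox8a, and fell at D3 as the ubiquitous Cox4i1 did. It was at 192 and 152 FPKM at D0, at 119.9 and 113 at D1 and at 83.5 and 86.7 at D3, then at 131 and 156 at D5 and 184 and 175.8 at D10. Its fold change at D3 was -1.01 on the log2 scale (adjusted p = 0.00173), in the direction of Cox7a1 but smaller. Across the 10 libraries its Pearson correlation with Cox7a1 was 0.853 on the log2 scale, while Cox6a1 and Cox6a2 gave -0.962 and Cox8a and Cox8b gave -0.902, values that describe 5 days with 2 libraries each.

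The members with a single form in this set, or with a rarely used second form, also fell at D3. Cox4i1, at 595 and 487 FPKM at D0, was at 191 and 189 FPKM at D3 (log2 fold change -1.50, adjusted p = 0.000562). Cox5a went from 248 and 202 FPKM to 65.3 and 49.7 FPKM (-1.97, adjusted p = 0.000376), and Cox5b from 319 and 260.2 FPKM to 99.0 and 91.7 FPKM (-1.59, adjusted p = 0.000376). Over the 10 libraries the correlation of Cox5a with Cox7a1 was 0.996.

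Cox4i2 was the lowest of the 10, at 4.48 and 4.37 FPKM at D0, 3.10 and 4.64 at D1, 2.31 and 1.69 at D3, 3.50 and 4.38 at D5 and 2.69 and 4.98 at D10. Its log2 fold change at D3 was -1.12 (adjusted p = 0.0217), and this call was lost without D0 replicate 1 (adjusted p = 0.0879), without D0 replicate 2 (0.0688) or without D3 replicate 2 (0.129). All 10 changes at D3 kept their sign without any single library. They also did with a term for Xist, which in this comparison rests on D3 replicate 2 alone for D3.

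**Figure D2:**
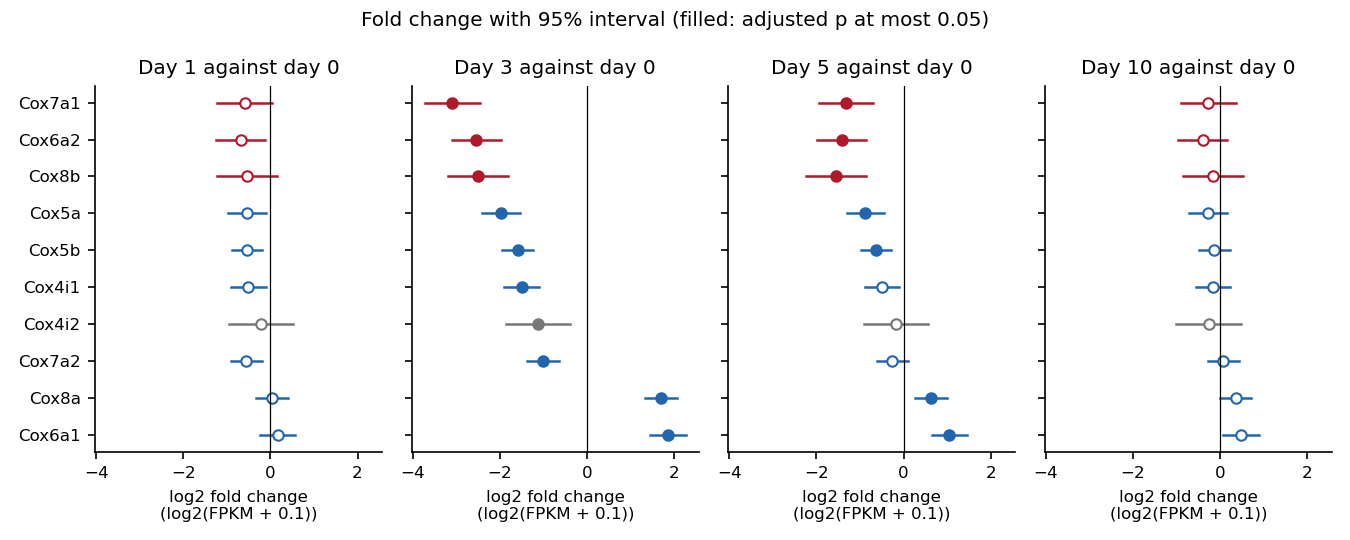
Log2 fold change (x axis) with its 95% interval for each of the 10 members against D0, by day. At D3 the muscle isoforms lie at -3.09 to -2.49, the other members that fell at -1.97 to -1.01, and Cox6a1 and Cox8a at 1.86 and 1.70, while at D10 every value lies between -0.40 and 0.48.

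The share of the muscle form in its isoform pair was also lowest at D3, and it does not depend on how libraries were scaled. For Cox7a1 the lower share reflects a larger fall than that of Cox7a2 and not an exchange. Cox6a2 made up 97.3% and 95.6% of the summed FPKM of Cox6a1 and Cox6a2 at D0, 64.2% and 49.5% at D3 and 94.9% and 92.6% at D10. Cox8b made up 94.0% and 90.8% of its pair at D0, 47.5% and 33.6% at D3 and 91.3% and 87.6% at D10. Cox8a thus had the higher FPKM in both D3 libraries, by a small margin in replicate 1. For Cox7a1 the shares were 83.7% and 82.7% at D0, 60.3% and 47.3% at D3 and 81.0% and 78.1% at D10.

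From D0 to D3 the log2 ratio of muscle to ubiquitous form moved by -4.40 for Cox6a2 to Cox6a1, by -4.19 for Cox8b to Cox8a and by -2.09 for Cox7a1 to Cox7a2. An exact permutation test of each ratio over the 5 days, on the spread between days against that within them, gave p = 0.00317 for Cox6a2 and for Cox7a1 and p = 0.00635 for Cox8b, unadjusted, with 4 ratios tested and 0.00106 as the smallest p that all arrangements of the 10 libraries allow. For Cox4i2 to Cox4i1 the ratio moved by 0.38 (exact permutation p = 0.760), and Cox4i2 made up 0.523% to 1.29% of its pair on all days. At D1 the muscle shares were still 93.4% and 94.5% for Cox6a2, 83.9% and 81.7% for Cox7a1 and 89.0% and 89.3% for Cox8b, and at D5 they were 84.4% and 82.4%, 71.4% and 69.3%, and 76.0% and 69.9%.

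**Figure D3:**
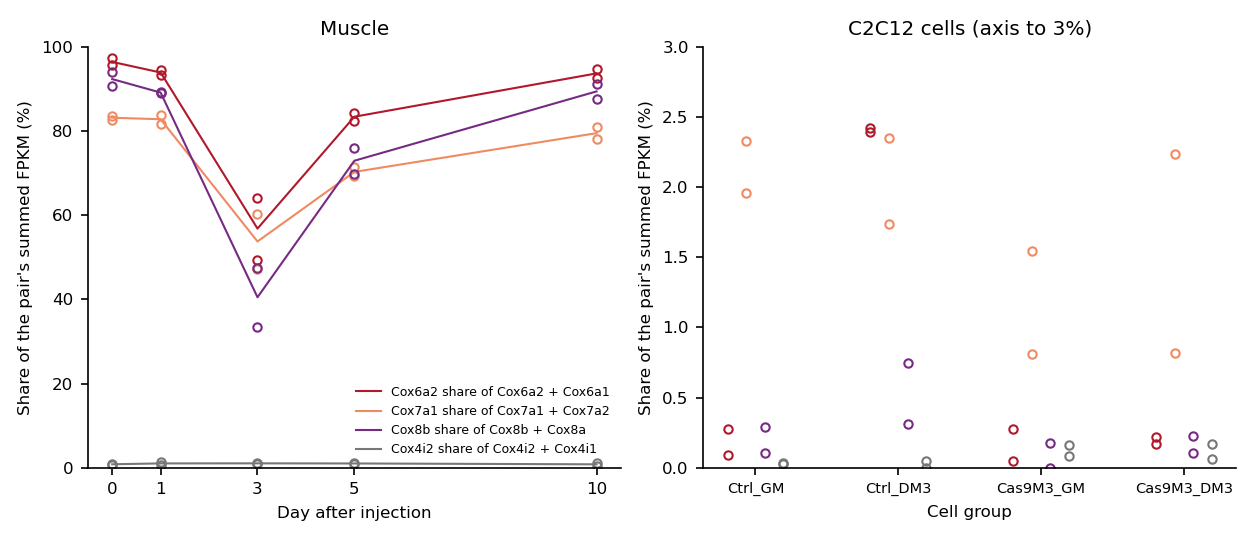
Share of each muscle form, and of Cox4i2, in the summed FPKM of its isoform pair (y axis, percent) by day, with a point per library and a line through the mean of the 2 libraries. Shares are lowest at D3, when Cox8b is at 47.5% and 33.6%, and are back at 78.1% or more at D10, while Cox4i2 stays at 0.523% to 1.29% throughout.

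The summed FPKM of each of these 3 pairs was lower in both D3 libraries than in both D0 libraries. Cox6a1 and Cox6a2 together were at 1119.8 and 789 FPKM at D0, 295 and 259.9 at D3 and 788 and 682 at D10. Cox7a1 and Cox7a2 summed to 1174 and 882 FPKM, then 210.1 and 165, then 967 and 801. For Cox8a and Cox8b the sums were 1118 and 753 FPKM, then 418 and 339, then 886 and 798, which left subunit VIII with the mildest fall of the 3 muscle pairs.

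At D1 no member was called against D0 (0 of 10 by limma, 5 at an unadjusted p under 0.05, where 6% of all genes were called). Log2 fold changes ran from -0.68 for Cox6a2 to 0.17 for Cox6a1, and 7 members were lower and 1 higher in both D1 libraries than in both at D0, compared with 26.9% and 25.5% of all genes without overlap in each direction.

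At D5, 7 of 10 members were called against D0, where 25.5% of all genes were. The muscle isoforms were still lower, with log2 fold changes of -1.56 for Cox8b (adjusted p = 0.0156), -1.42 for Cox6a2 (0.0133) and -1.32 for Cox7a1 (0.0176). Cox5a (-0.88) and Cox5b (-0.64) were also lower, and Cox6a1 (1.05, adjusted p = 0.0127) and Cox8a (0.63, 0.0275) higher. Cox4i1 was at -0.49 (0.0702), Cox7a2 at -0.26 (0.252) and Cox4i2 at -0.17 (0.721). None of the 7 calls held with a term for Xist, where limma called 0 of all genes tested (3193 at an unadjusted p under 0.05), and there Cox8b was at -2.36 (adjusted p = 0.142), Cox7a1 at -2.02 (0.150) and Cox6a2 at -1.98 (0.150). Leaving out D0 replicate 1, D5 replicate 1 or D5 replicate 2 also ended most calls, both among the members and over all genes. Without single libraries Cox8b ran from -1.87 to -1.25.

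The return from D3 to D10 was called for 9 of 10 members, with 37.9% of all genes called (19.1% higher and 18.8% lower). Cox7a1 rose by 2.82 (adjusted p = 0.000630), Cox8b by 2.32 (0.00131) and Cox6a2 by 2.14 (0.000913) on the log2 scale. Cox5a rose by 1.69, Cox5b by 1.46, Cox4i1 by 1.33 and Cox7a2 by 1.08, while Cox6a1 fell by 1.38 (adjusted p = 0.00129) and Cox8a fell by 1.35 (0.000953). Cox4i2 was at 0.86 (0.0687). These counts were 9 or 10 with a term for Xist and without any single library.

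Between D3 and D5 the return was already called for 8 of 10 members (12.7% of all genes), among them Cox7a1 (1.77, adjusted p = 0.00941), Cox6a2 (1.12, 0.0270), Cox8a (-1.07, 0.00859) and Cox6a1 (-0.81, 0.0262). Cox8b was at 0.93 (0.0801) and Cox4i2 at 0.95 (0.0939). None of these calls held with a term for Xist, where limma called 0 of all genes tested. Leaving out a single D3 or D5 library cut the calls among the members and also those over all genes. Without single libraries Cox7a1 ran from 1.42 to 2.12. At D10 against D0, 0 of 10 members were called by limma (1, Cox6a1, at an unadjusted p under 0.05), where 0.00597% of all genes were called. The log2 fold changes ran from -0.40 for Cox6a2 (95% interval -0.97 to 0.17) to 0.48 for Cox6a1 (0.07 to 0.89), and with 2 libraries a day these intervals allow sizeable remaining differences.

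Markers of muscle fibres and of other cell types moved over the same days, and their part in these changes was not tested. The 10 mature fibre markers, Acta1, Ckm and Myh4 among them, summed to 66523 to 74865 FPKM at D0, 15139 to 19885 at D3, 46753 to 47314 at D5 and 63103 to 81198 at D10. The 5 regenerating fibre markers such as Myh3 summed to 11.6 to 33.2 FPKM at D0 and 726 to 1281 at D3, and the 7 macrophage markers to 46.7 to 96.3 at D0 and 1573 to 1612 at D3. The 4 fibroblast markers went from 51.6 to 157 FPKM at D0 to 617 to 688 at D3, and the 4 endothelial markers from 56.7 to 78.2 FPKM to 32.2 to 41.5 FPKM. The 6 pericyte and smooth muscle markers summed to 95.2 to 102 FPKM at D0 and 358 to 437 at D3, with mixed directions. On the log2 scale Acta2 was at 3.69, Pdgfrb at 1.29, Cspg4 at 1.28, Notch3 at 1.02, Rgs5 at -0.65 and Myh11 at -1.42.

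Other genes of the same enzyme mostly fell with the members at D3. Of the other nuclear subunits and paralogs, 8 of 10 were tested, and 5 were lower and 1 higher, with a median log2 fold change of -1.50 against 0.01 over all genes. Cox6c fell by 1.85 (adjusted p = 0.000432), Cox7a2l, which joins complex IV to other complexes, was at -0.19 (0.275), and Cox6b2, known as a testis form, rose by 2.31 from 0.0676 and 0.145 FPKM to 0.869 and 0.937 FPKM. The 3 core subunits encoded in mitochondrial DNA were lower, mt-Co1 at -2.57, mt-Co2 at -2.52 and mt-Co3 at -2.79, and Cycs, the gene of cytochrome c, was at -1.69 (adjusted p = 0.000358).

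Of 24 genes tested that serve the assembly of the enzyme, 17 were called lower at D3, 0 higher and 7 not called, where 24.3% of all genes were called lower. Their median was -0.79, and Cox10, which makes the precursor of the enzyme's haem, had the lowest value at -1.82 (adjusted p = 0.000386). Of 12 transcriptional regulators of mitochondrial genes, 7 were lower and 0 higher, with a median of -0.87. Esrrg, a nuclear receptor of oxidative muscle, was at -1.87 (adjusted p = 0.000269) and Esrrb at -2.28, whereas Nrf1 (0.07) and Pprc1 (0.28) were not called. From D3 to D10, 16 assembly genes were higher and 0 lower, 7 regulators higher and 1 lower, and all 3 mitochondrial core genes higher.

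The genes with the most similar course to each isoform over the 10 libraries were found among 12285 genes with a mean of at least 1 FPKM, by the Pearson correlation of log2 values, which here follows 5 days with 2 libraries each. For Cox6a2 they were D10Jhu81e, Mpc2 and Phyh (0.996 each). For Cox7a1 they were Tnnc2, Ube2c and Gm26631 (0.996 each), of which Ube2c shares 592 exon bases with Tnnc2 and Gm26631 shares 269 with Cox5a, each on the opposite strand. Those nearest Cox8b were Cops8 (0.991), Cox6a2 (0.990) and Ndufa1 (0.989). Cox4i2 had other neighbours, Tie1 (0.975), Arap3 (0.970) and Cd300lg (0.970), of which Tie1 is one of the endothelial markers above.

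In C2C12 cells the muscle isoforms were hardly expressed and the ubiquitous forms carried nearly all of each pair. Cox6a2 was at 0.648 and 0.609 FPKM in Ctrl_GM, 4.02 and 6.36 in Ctrl_DM3, 0.792 and 0.160 in Cas9M3_GM and 0.317 and 0.601 in Cas9M3_DM3. These rest on 14 and 4, 75 and 72, 17 and 2, and 6 and 6 reads. The Ctrl_DM3 libraries lay above the other 6.

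Cox7a1 stayed between 0.402 and 3.29 FPKM in the 8 libraries (6 to 21 reads), with the highest value in Ctrl_GM replicate 2. It was at 0.888 and 0.611 FPKM in Cas9M3_GM, below both libraries of Ctrl_GM and of Ctrl_DM3, which overlapped each other. Cox8b lay between 0 and 2.00 FPKM (0 to 12 reads) and was listed at 0 in Cas9M3_GM replicate 2. Cox4i2 had 0 to 4 reads and was not tested. With so few reads, moderate changes of Cox7a1, Cox8b and Cox4i2 were not detectable at this depth.

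The ubiquitous forms were high in every library. Cox6a1 was at 235 and 693 FPKM in Ctrl_GM, 162 and 259 in Ctrl_DM3, 285 and 338 in Cas9M3_GM and 189.8 and 274 in Cas9M3_DM3, and Cox8a at 210.4 and 537, 163 and 267, 299 and 377, and 219 and 355. The second value in Ctrl_GM comes from the library that stood apart and was the highest of all 8 for both genes. Cox4i1 ran from 104 to 374 FPKM, Cox7a2 from 48.7 to 165, Cox5b from 31.7 to 112 and Cox5a from 18.3 to 72.3.

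**Figure D4:**
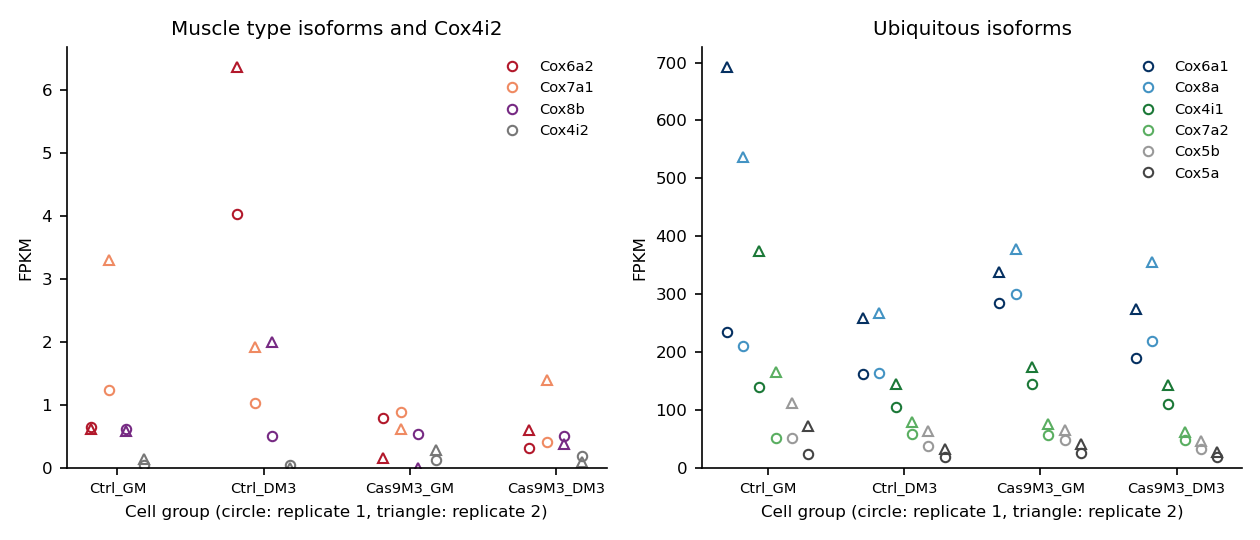
FPKM (linear axis) of the 10 members in the 4 C2C12 groups, with a point per library. Cox6a2 reaches 4.02 and 6.36 FPKM in Ctrl_DM3 and stays at 0.160 to 0.792 FPKM elsewhere, and the ubiquitous forms are highest in Ctrl_GM replicate 2.

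By limma, 0 of the 9 members tested were called in each of the 4 group comparisons and in the test of whether the Cas9M3 effect differed between DM3 and GM. Calls over all genes amounted to 1.98% for Cas9M3_DM3 against Ctrl_DM3, 1.14% for Ctrl_DM3 against Ctrl_GM, 0.0289% for Cas9M3_DM3 against Cas9M3_GM, and 0% for Cas9M3_GM against Ctrl_GM (1244 genes at an unadjusted p under 0.05) and for the difference of effects (1198). Of the members, Cox6a2 alone had an unadjusted p under 0.05, in Cas9M3_DM3 against Ctrl_DM3, in Ctrl_DM3 against Ctrl_GM and in the difference of effects.

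Cox6a2 was lower in Cas9M3_DM3 than in Ctrl_DM3 by a log2 fold change of -3.26 (SE 0.63, 95% interval -4.78 to -1.73, adjusted p = 0.0645). The value passed the threshold with a pseudocount of 1 (-2.07, adjusted p = 0.0206), which weights low values less, and with quantile normalization (-3.46, 0.0448). It also passed with only these 2 groups in the fit (adjusted p = 0.0101), where limma called 2637 of 13824 genes against 274 with all groups. It did not pass with a pseudocount of 0.01, with the other filters or with scaling by median ratio. Nor did it pass with a replicate block or with centring by gene length. It passed without any single GM library, but not without any single DM3 library, where no gene tested passed. Without single libraries it ran from -3.63 to -2.88. In Ctrl cells Cox6a2 differed by 2.83 between DM3 and GM (SE 0.63, adjusted p = 0.104), and in Cas9M3 cells by 0.17. The difference between the Cas9M3 effects in DM3 and GM was -2.66 (SE 0.89, adjusted p = 0.483), so the effects in DM3 and GM were not shown to differ. Its share of the pair with Cox6a1 was 2.42% and 2.39% in Ctrl_DM3 and 0.0474% to 0.277% in the other 6 libraries, and the exact permutation test of the ratio over the 4 groups gave p = 0.133 (smallest possible 0.00952).

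Muscle markers moved with Cox6a2 in the cells, and their part was not tested. The 10 mature fibre markers summed to 18.6 to 134 FPKM in Ctrl_GM, 487 to 534 in Ctrl_DM3, 6.75 to 90.9 in Cas9M3_GM and 14.0 to 17.1 in Cas9M3_DM3, where Ckm, Myh1, Myh2 and Myh4 were under 0.1 FPKM. The 5 regenerating fibre markers summed to 225 to 261 FPKM in Ctrl_DM3 and 4.41 to 5.84 in Cas9M3_DM3. Against Ctrl_DM3, the mature fibre markers Ckm (-5.14, adjusted p = 0.0214) and Tnnc2 (-4.98, 0.0379) were called lower. Tnnt3 (-4.41, 0.0546), Acta1 (-5.41, 0.163), Mb (-4.77, 0.13), Actn3 (-3.23, 0.131) and Myh1 (-4.46, 0.233) were lower but not called. Pvalb went the other way, at 0.202 (0.937). The regenerating fibre markers Myh3, Chrng, Mymk and Mymx were lower but not called. Of the myoblast markers, Myod1 was called at -2.80 (0.0337), while Myog (-4.88, 0.197) and Myf5 (-0.87, 0.599) were not.

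None of the 6 ubiquitous or single-form members was called in the cells with all libraries. Between Cas9M3_DM3 and Ctrl_DM3 their log2 fold changes lay between -0.34 and 0.42, and between Cas9M3_DM3 and Cas9M3_GM between -0.55 and -0.25. In Ctrl_DM3 against Ctrl_GM they were all negative, -0.98 to -0.45, but without Ctrl_GM replicate 2 they ran from -0.20 to 0.39, with 2 of 6 positive. Leaving out Ctrl_GM replicate 1 instead kept only the library that stood apart in that group. There Cox6a1 was at -1.76, Cox4i1 at -1.61, Cox7a2 at -1.28 and Cox6a2 at 2.86. Cas9M3_GM against Ctrl_GM gave -0.53 to 0.00 with all libraries and 0.11 to 0.68 without Ctrl_GM replicate 2, so both comparisons with Ctrl_GM rest on that library.

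Cox7a1 made up 0.811% to 2.35% of its pair, Cox8b 0% to 0.744% and Cox4i2 0% to 0.166% over the 8 libraries. The exact permutation p of their ratios over the 4 groups was 0.362 for Cox7a1 to Cox7a2, 0.324 for Cox8b to Cox8a and 0.286 for Cox4i2 to Cox4i1, unadjusted. Of the 46 other subunit, assembly, regulator, mitochondrial core and cytochrome c genes tested in the cells, limma called 0 in each comparison, with 3 to 6 at an unadjusted p under 0.05. The lowest adjusted p was that of Cycs in Cas9M3_DM3 against Ctrl_DM3, at a log2 fold change of -1.28 (adjusted p = 0.0508).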

How the data were processed

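Members were taken from 2 deposited tables of FPKM values, 10 libraries of regenerating muscle and 8 of C2C12 cells. Per the methods, the authors used HISAT2 to map reads (GRCm38) and featureCounts to assign them to genes, and the deposited FPKM came from DESeq2's fpkm function. The authors' counts were not analysed here, nor were the libraries of Mettl3 overexpression. Gene positions and lengths came from GENCODE M21 (53360 and 55227 identifiers matched), and promoter sequence from RefSeq. Low values were whole multiples of 1 read, within 0.05 of a read and up to 20 reads, for at least 96.9% and 98.7% of values per library, and 1 read on 1 kb was worth at most 0.0817 and 0.104 FPKM. These reads were not tested.

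Genes with at least 0.5 FPKM in 2 libraries were tested, 16753 and 13824. All groups of a table entered 1 limma fit of log2(FPKM + 0.1) (limma 3.58.1, R 4.3.3, eBayes with trend), and p-values were adjusted by Benjamini-Hochberg over all genes tested. Fold changes on this scale understate the change of low genes. Ratios were tested by exact permutation over libraries, on the spread between groups whatever its direction (Python 3.11.15). The script was tested on simulated data. Named genes were all members, the largest changes called in each fixed list, genes not called that a count needed, and the 3 nearest genes to 4 members. Members, lists and markers were chosen with earlier results of these data known. Alternatives were other pseudocounts, filters and scalings, fits of the compared groups, a replicate block, a term for Xist, and leaving out each library. Centring by gene length was added after the data were seen.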

Additional observations from a re-analysis of the deposited data

How the results depend on the processing

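No called member changed sign under any alternative. Over the 10 members at D3 and D5 against D0 and at D5 and D10 against D3, and Cox6a2 alone in the cells, 758 recomputed fold changes kept their side of the threshold, 77 no longer passed it, 13 newly passed it and 6 changed sign. The number of members called at D3 against D0 was 9 to 10 without single libraries, and at D10 against D3 also 9 to 10. At D5 against D0 it was 7, but 1 with only the groups compared and 0 with the Xist term. With only the groups compared, calls over all genes there moved from 4267 to 1340. At D5 against D3 it was 8, but 0 with the Xist term. With that term limma called 0 of all genes in both comparisons. Without some single libraries both counts fell, and so did the calls over all genes. For Cas9M3_DM3 against Ctrl_DM3 it was 0, but 1 with a pseudocount of 1, with quantile normalization and with only the groups compared, and 0 to 1 without single libraries. For Ctrl_DM3 against Ctrl_GM it was 0, but 1 with a pseudocount of 1, and it depended on which Ctrl_GM library was left out. Quantile normalization moved the median of all genes at D3 against D0 from 0.01 to -0.12, and there Cox7a1 was at -2.38, Cox6a2 at -1.80 and Cox8b at -1.71. Values that changed sign were uncalled ones. In at least 1 alternative the sign changed for 1 member at D1, 2 at D5 and 4 at D10 against D0, and for 4 to 8 of 9 members in each comparison of the cells. Under quantile normalization Cox4i1 was at 0.0555 and Cox7a2 at 0.14 at D5 against D0, Cox6a2 was at -0.16 in Cas9M3_DM3 against Cas9M3_GM, and the Cox4i2 to Cox4i1 ratio moved by -0.48 in muscle and -0.50 in cells. With a pseudocount of 0.01 that ratio moved by -0.93 in cells, and with a pseudocount of 1 the Cox7a1 to Cox7a2 ratio moved by 0.0917. Without single libraries Cox6a2 ran from -1.48 to 0.29 in Cas9M3_GM against Ctrl_GM and from -0.72 to 1.05 in Cas9M3_DM3 against Cas9M3_GM, and the ratios in cells ran from -0.19 to 0.83 for Cox4i2, from -0.25 to 0.14 for Cox7a1 and from 0.68 to 2.10 for Cox8b. The causes were not tested. Same-numbered libraries deviated together with correlations of -0.02 to 0.21 in muscle and 0.28 to 0.68 in cells, and nothing in the labels says that a number marks a shared animal or day. With a replicate block 10 members were called at D3 against D0 (8314 of all 16753 genes tested) and 7 at D5 against D0 (4609 genes). In the same fit 9 members were called at D5 against D3, Cox8b added (2258 genes), and 9 at D10 against D3 (6625 genes). In cells 0 members were called. There calls over all genes moved from 274 to 505 for Cas9M3_DM3 against Ctrl_DM3 and from 158 to 411 for Ctrl_DM3 against Ctrl_GM. Within the block the exact permutation p of the Cox6a2 to Cox6a1 ratio was 0.0167 in muscle and 0.208 in cells. Only replicate 2 was exchanged between groups there. That allows fewer arrangements, so the smallest possible p is larger than without the block.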
